A study of Homo sapiens with 12 samples.

Results

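The 9 chemokine genes described here are IL8 (CXCL8 in current nomenclature), CXCL1, CXCL2, CXCL3, CXCL5, CXCL16, CCL2, CCL5 and CCL20. They were taken by symbol from a table of 23686 genes, which lists all 9. The RNA came from HCT116, a line derived from a colon cancer, and MDA-MB-231, a line derived from a breast cancer, with 2 libraries in each of 6 groups. In each line the groups were the antibody anti-Hsp60N with 100 µM hydrogen peroxide (H2O2), control IgG with 100 µM H2O2, and control IgG alone, and H2O2 was given for 8 h. Every group thus received an antibody or control IgG, and no group received anti-Hsp60N without H2O2. The labels do not state what the N in the antibody's name stands for. Each line had its own culture medium with 10% serum, and effects of line and of medium cannot be told apart. The labels do not say that the 2 libraries of a group came from separate cultures, and the p-values below therefore measure only the spread between these samples.

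Chemokines are small secreted proteins that guide leukocytes through G protein-coupled receptors. IL8, CXCL1, CXCL2, CXCL3 and CXCL5 belong to the ELR+ CXC group, named for a Glu-Leu-Arg motif before the first cysteines, which attracts neutrophils through CXCR1 and CXCR2. CCL2 recruits monocytes through CCR2, CCL5 attracts T cells and monocytes, and CCL20 attracts cells that carry CCR6. CXCL16 is unusual in being made as a transmembrane protein, which ADAM10 and ADAM17 can shed, and its receptor is CXCR6. Transcription of the ELR+ genes and of CCL20 is known to be driven by NF-kappaB, with AP-1 acting on IL8, and several of these mRNAs are short-lived because of AU-rich elements bound by decay factors such as ZFP36. Many carcinoma lines make such chemokines without immune cells present.

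The promoters are shown because NF-kappaB sites lie close to the start of these genes and because CXCL1, CXCL2 and CXCL3 resemble each other in sequence. The RefSeq promoter table of build GRCh38.p14 held 6 of the 9 members, and the 150 bases before the annotated start are given 5′ to 3′ on the strand of the gene. Capitals mark matches to GGAATTTCC, a kappaB site, or to TGANTCA, an AP-1 site, and in CCL20 the matches to a wider kappaB pattern, GGG and CC with any 5 bases between, read on either strand and joined where they overlap. IL8 lies at chr4:73740419-73740568 on the plus strand, CXCL1 at chr4:73869243-73869392 on the plus strand, CXCL2 at chr4:74099196-74099345 on the minus strand, CXCL3 at chr4:74038690-74038839 on the minus strand, CXCL5 at chr4:73998678-73998827 on the minus strand, and CCL20 at chr2:227813692-227813841 on the plus strand.
IL8: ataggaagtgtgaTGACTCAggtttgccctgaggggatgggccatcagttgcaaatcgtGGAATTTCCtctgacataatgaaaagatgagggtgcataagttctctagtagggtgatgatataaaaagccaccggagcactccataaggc
CXCL1: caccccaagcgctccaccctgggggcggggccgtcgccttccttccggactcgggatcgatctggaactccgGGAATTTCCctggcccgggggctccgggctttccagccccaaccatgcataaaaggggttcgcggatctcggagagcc
CXCL2: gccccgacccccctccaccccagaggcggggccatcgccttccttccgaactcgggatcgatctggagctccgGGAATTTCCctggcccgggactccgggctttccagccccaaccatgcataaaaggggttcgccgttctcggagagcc
CXCL3: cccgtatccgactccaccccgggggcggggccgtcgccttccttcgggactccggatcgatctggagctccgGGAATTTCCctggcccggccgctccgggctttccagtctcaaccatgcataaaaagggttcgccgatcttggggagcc
CXCL5: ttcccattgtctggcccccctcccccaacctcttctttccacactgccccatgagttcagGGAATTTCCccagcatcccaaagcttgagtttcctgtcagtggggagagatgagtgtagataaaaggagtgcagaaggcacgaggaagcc
CCL20: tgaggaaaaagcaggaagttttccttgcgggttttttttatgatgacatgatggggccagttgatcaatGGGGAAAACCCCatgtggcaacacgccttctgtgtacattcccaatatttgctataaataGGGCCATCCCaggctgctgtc

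All 5 ELR+ promoters held GGAATTTCC, on either strand a match found in 0.461% of 35116 RefSeq promoters of the same 300-base length. It lay at bases -91 to -83 from the start in IL8, -78 to -70 in CXCL1 and CXCL3, -77 to -69 in CXCL2 and -90 to -82 in CXCL5. IL8 also held TGACTCA at -137 to -131, and TGANTCA occurred in 7.71% of promoters. CCL20 held no GGAATTTCC, but held the wider pattern, which is present in 58.7% of promoters and overlapped GGAATTTCC in CXCL1, CXCL2, CXCL3 and CXCL5. TATAAA was held by IL8 and CCL20 and by 11.5% of promoters. TGATGNAA, the motif read by ATF4 with C/EBP partners, was in 3.62% of promoters and in none of the 6 members' 300-base windows. A match is a description of the letters, and binding was not measured. In 50-base windows of the GENCODE transcripts, 5.73% of CXCL1, 9.24% of CXCL2 and 5.26% of CXCL3 were identical to a stretch of the other 2. The split of reads between these 3 genes is therefore uncertain within those stretches, whereas IL8 and CXCL5 shared none with the other ELR+ members.

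Between 12411 and 12653 genes reached 1 TPM (a value scaled to gene length and to the library's total) in a library. Across genes, the Pearson correlation within a group was 0.9937 to 0.9956, against 0.7872 to 0.7956 for libraries of different lines. TPM keeps no read depth, so depth is unknown here and no counting interval could be given for low values. Epithelial marker genes summed to 5985 to 6339 TPM in HCT116, against 1742 to 1970 TPM in MDA-MB-231, and 1 of the 10 in HCT116 (CDX1) and 2 in MDA-MB-231 (CDX1 and CDX2) were listed at 0 in every library. CDX2, which marks intestinal epithelium, averaged 16.1 TPM under IgG in HCT116 and was listed at 0 in MDA-MB-231, while VIL1 of the same list averaged at most 0.04 TPM in any group. VIM, the mesenchymal intermediate filament, averaged 5.15 TPM in HCT116, against 2534 TPM in MDA-MB-231, both under IgG. Others of the mesenchymal list differed less: CAV1 averaged 301 TPM under IgG in HCT116, against 470 TPM in MDA-MB-231, and CDH2 and SPARC averaged below 1 TPM in every group. Of immune markers, PTPRC, the leukocyte antigen CD45, averaged at most 0.04 TPM in any group. The 10-gene immune list summed to 21.3 to 26.5 TPM in HCT116, against 190 to 211 TPM in MDA-MB-231, mostly CD68, a lysosomal protein that epithelial lines also express (20.3 to 24.2 TPM in HCT116, against 184 to 196 TPM in MDA-MB-231 as group means). CD3D in HCT116, and MS4A1 and NKG7 in MDA-MB-231, were listed at 0 in every library. CD14 of the same list was not near 0 in MDA-MB-231, with group means of 4.3 to 5.4 TPM, against 0.08 to 0.105 TPM in HCT116. The 8-gene endothelial and fibroblast list summed to 6.02 to 8.39 TPM in HCT116, against 9.75 to 13.3 TPM in MDA-MB-231, and DCN was listed at 0 in all 12 libraries. Others of that list were above 1 TPM: COL1A1 averaged 4.0 to 7.0 TPM over the 6 groups. In MDA-MB-231 PECAM1 averaged 2.0 to 2.7 TPM and PDGFRB 2.1 to 2.7 TPM. In bulk RNA, fewer expressing cells and less RNA per cell cannot be told apart.

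Under IgG alone, the ELR+ genes other than CXCL5 were abundant in MDA-MB-231 and below 1 TPM in HCT116, while CXCL16 ran the other way. IL8 stood at 0.45 and 0.49 TPM in HCT116, against 234 and 256 TPM in MDA-MB-231. CXCL1, a ligand of CXCR2, stood at 0.39 and 0.98 TPM in HCT116, against 347 and 372 TPM in MDA-MB-231. CXCL16 was at 52.6 and 54.0 TPM in HCT116, against 5.70 and 4.92 TPM in MDA-MB-231. The libraries of the lines did not overlap for any of the 9 genes, where 49.2% of all tested genes stood above and 40.4% below in HCT116 without overlap. CXCL2 averaged 0.800 ± 0.0566 TPM in HCT116, against 41.6 ± 1.70 TPM in MDA-MB-231 (SD, n = 2 each). CXCL3 averaged 0.725 ± 0.247 TPM in HCT116, against 56.0 ± 5.28 TPM in MDA-MB-231. CCL2 was listed at 0 in both HCT116 libraries and at 9.76 and 11.8 TPM in MDA-MB-231, and CCL20 was likewise listed at 0 in HCT116 and at 5.15 and 5.06 TPM in MDA-MB-231. The remaining members, CXCL5 and CCL5, were low throughout. CXCL5 was listed at 0 in HCT116 and reached 0.99 and 1.14 TPM in MDA-MB-231, and its promoter holds the same GGAATTTCC as those of the abundant genes of its group. CCL5 was at 0 and 0.10 TPM in HCT116, against 0.86 and 1.03 TPM in MDA-MB-231.

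By limma on log2(TPM + 1), a scale on which changes of weakly expressed genes are understated, 1 member was higher and 8 were lower in HCT116 than in MDA-MB-231 at an adjusted p under 0.05. Among the 13956 genes tested, 82.8% were called in this comparison, 45.5% higher and 37.3% lower. The log2 difference, HCT116 over MDA-MB-231, was -7.38 for IL8 (SE 0.11, limma adjusted p 3.6e-13), -7.76 for CXCL1 (SE 0.18, 9.18e-12), -4.56 for CXCL2 (SE 0.11, 1.68e-11) and -5.05 for CXCL3 (SE 0.24, 4.32e-09). It was 3.11 for CXCL16 (SE 0.10, limma adjusted p 1.07e-10), and the mean TPM of CXCL16 was 10.0 times as high in HCT116. The limma adjusted p was 5.69e-11 for CCL2, 3.25e-07 for CCL20, 9.76e-07 for CXCL5 and 0.000166 for CCL5. No fold is given for CCL2, CCL20 and CXCL5, since HCT116 was listed at 0. CCL2, CXCL5 and CCL5 reached 1 TPM, the level the filter asked for, only in MDA-MB-231. Their place among the 8 lower members was thus largely set by the filter, and their p-values are no support for it. The median over all tested genes was 0.11 in this comparison and moved to -0.01 under median-of-ratios scaling, and no member changed direction.

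**Figure D1:**
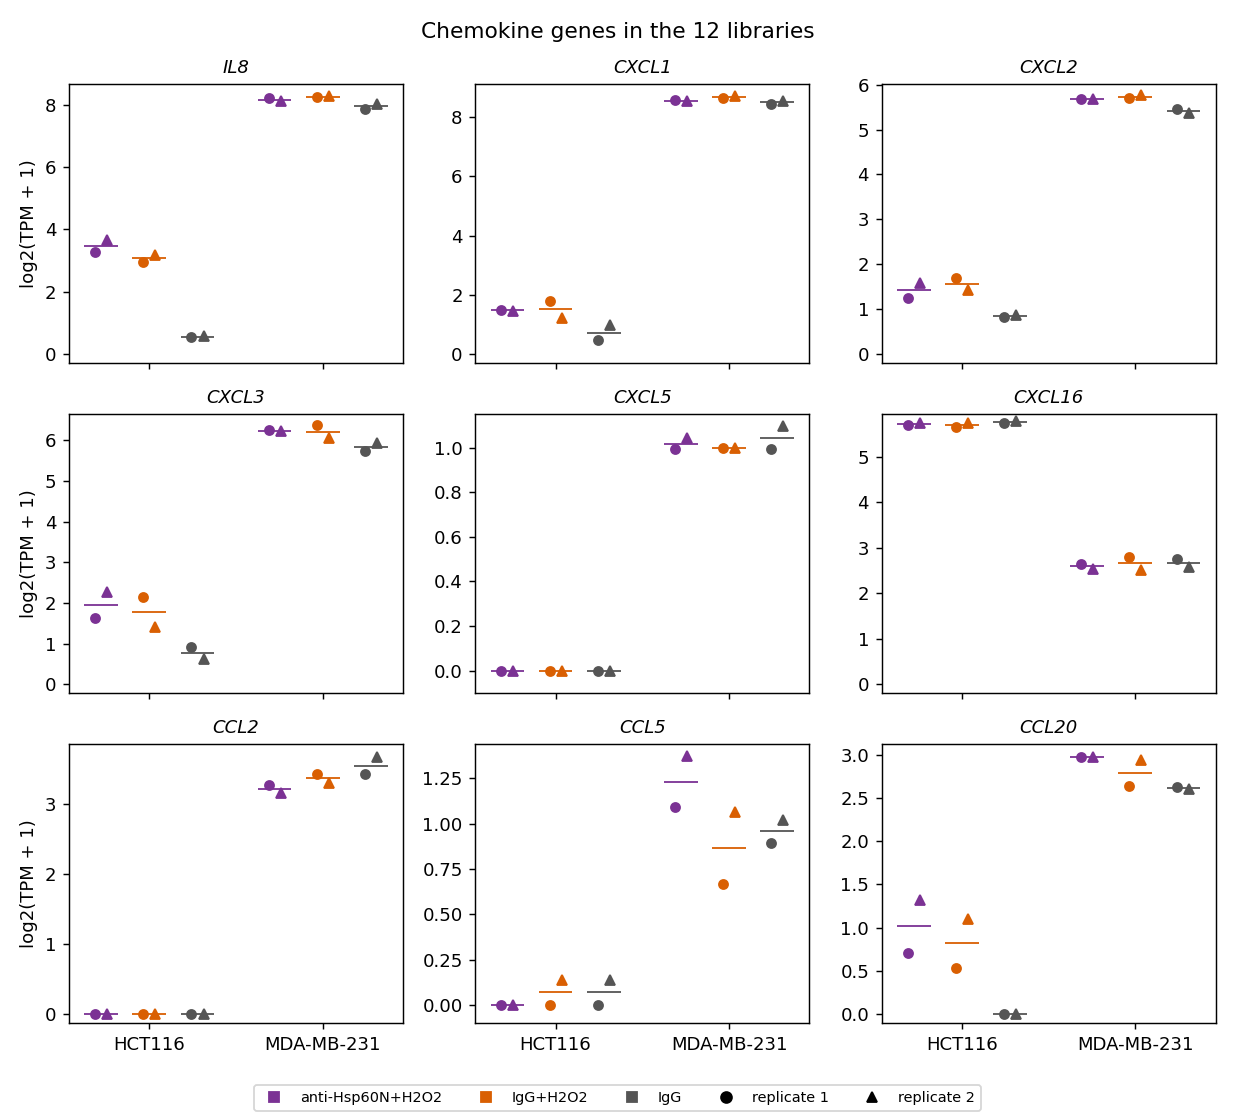
Each panel shows 1 of the 9 chemokine genes as log2(TPM + 1) on the vertical axis, with HCT116 left and MDA-MB-231 right. Colours give the treatment, symbols the 2 libraries and lines the group means. IL8 in HCT116 stands at 8.69 and 11.53 TPM with anti-Hsp60N and H2O2, 6.78 and 8.10 TPM with IgG and H2O2, and 0.45 and 0.49 TPM with IgG, against 233.79 to 310.91 TPM over the 6 MDA-MB-231 libraries.

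The order of the members differed between the lines. In MDA-MB-231, CXCL1 was the highest member in all 3 treatments, followed by IL8, CXCL3, CXCL2 and CCL2, and the libraries of each of these stood above those of the next. CXCL16 and CCL20 came after these, and overlapped each other under IgG and under IgG with H2O2, and CXCL5 and CCL5 were lowest. In HCT116, CXCL16 was highest in every treatment. Behind it under IgG, CXCL2 at 0.800 TPM, CXCL3 at 0.725 TPM and CXCL1 at 0.685 TPM overlapped, and the libraries of IL8 lay within those of CXCL1. Under IgG with H2O2 in HCT116, IL8 had moved to second place, above every library of CXCL3, CXCL2 and CXCL1, which overlapped each other. The 5 ELR+ genes summed to 13.93 and 19.11 TPM with anti-Hsp60N and H2O2, 14.93 and 12.79 TPM with IgG and H2O2, and 2.50 and 2.86 TPM with IgG in HCT116. IL8 made up 62.4% and 60.3% of these sums with anti-Hsp60N and H2O2, 45.4% and 63.3% with IgG and H2O2, and 18.0% and 17.1% with IgG, so its share was higher in all 4 libraries with H2O2. In MDA-MB-231 the sum was 677 to 849 TPM over the 6 libraries, and IL8 made up 34.6% to 36.8% of it.

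In HCT116, 5 of the 9 chemokine genes rose with H2O2 over IgG alone and none fell: IL8, CXCL1, CXCL2, CXCL3 and CCL20. IL8 had 6.78 and 8.10 TPM with H2O2, against 0.45 and 0.49 TPM with IgG. That is 15.8 times the mean TPM, and both H2O2 libraries stood far above both IgG libraries. On the log2(TPM + 1) scale IL8 rose by 2.52 (SE 0.11, limma adjusted p 1.07e-07, 95% interval 2.27 to 2.76). CXCL2 had 2.22 and 1.70 TPM with H2O2, against 0.76 and 0.84 TPM with IgG, and rose by 0.71 (SE 0.11, limma adjusted p 0.000956). CXCL1 had 2.49 and 1.32 TPM with H2O2, against 0.39 and 0.98 TPM with IgG, and rose by 0.78 (SE 0.18, limma adjusted p 0.00738). CXCL3 had 3.44 and 1.67 TPM with H2O2, against 0.90 and 0.55 TPM with IgG, and rose by 1.005 (SE 0.24, limma adjusted p 0.00979). The libraries of the treatments did not overlap for these 3 genes, but the H2O2 libraries of CXCL1 and CXCL3 were unlike each other, with the second nearer to IgG. CCL20, the ligand of CCR6, was at 0.45 and 1.15 TPM with H2O2 and listed at 0 in both IgG libraries, and was called by limma (adjusted p 0.012) with no fold to give.

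The other 4 members were not called in HCT116 under H2O2. CXCL16, the most abundant, had 49.1 and 52.3 TPM with H2O2, against 52.6 and 54.0 TPM with IgG, and its log2 difference was -0.07 (SE 0.10, limma adjusted p 0.626, 95% interval -0.28 to 0.14). CCL5 stood at 0 and 0.10 TPM in both groups, and CCL2 and CXCL5 were listed at 0 in all 4 libraries. Among all tested genes, 32.9% were called in this comparison, 15.4% higher and 17.5% lower, and 29.1% had H2O2 libraries above IgG libraries without overlap. The 6 members above 0 in both groups had a median log2 difference of 0.75, against -0.01 for all tested genes. The calls of IL8 and CXCL2 held in all 22 alternatives, including each library left out in turn. Those of the other 3 were lost without single libraries, with the direction kept. CXCL1 had a log2 difference of 0.52 without IgG replicate 1 and 0.48 without IgG with H2O2 replicate 1, against 0.78 with all libraries, and a limma adjusted p of 0.0546 in both cases. CXCL3 had 0.86 without IgG replicate 2 (adjusted p 0.067) and 0.64 without IgG with H2O2 replicate 1 (0.0813), against 1.005 with all libraries. For CCL20 the limma adjusted p was 0.0507 without IgG replicate 2 and 0.104 without IgG with H2O2 replicate 2. A fit of HCT116 alone leaves the differences as they are and estimates the spread from fewer libraries, without those of MDA-MB-231. The SE was then 0.26 for CXCL1, 0.35 for CXCL3 and 0.28 for CCL20, against 0.18, 0.24 and 0.21 in the joint fit. In the fit of HCT116 alone the limma adjusted p was 0.104 for CXCL1, 0.108 for CXCL3 and 0.105 for CCL20.

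In MDA-MB-231, 0 of the 9 genes were past the threshold of limma with H2O2 over IgG, and 2 of them, IL8 and CXCL2, had an unadjusted p under 0.05. In this line 2.66% of all tested genes were called and 16.7% had an unadjusted p under 0.05. IL8 had 299 and 311 TPM with H2O2, against 234 and 256 TPM with IgG, a log2 difference of 0.32 (SE 0.11, limma adjusted p 0.171, 95% interval 0.07 to 0.56). CXCL2 had 50.7 and 53.7 TPM with H2O2, against 42.8 and 40.4 TPM with IgG, a log2 difference of 0.32 (SE 0.11, limma adjusted p 0.175). CXCL1 had 401 and 418 TPM with H2O2, against 347 and 372 TPM with IgG (log2 difference 0.19, limma adjusted p 0.666). In each of these the H2O2 libraries stood above the IgG libraries, and the same held for CXCL3 and CCL20, which makes 5 of 9 members, where 30.4% of all tested genes had H2O2 libraries above IgG libraries. CXCL3 had 81.6 and 65.2 TPM with H2O2, against 52.3 and 59.8 TPM with IgG, and CCL20 had 5.20 and 6.65 TPM with H2O2, against 5.15 and 5.06 TPM with IgG (limma adjusted p 0.481 and 0.748).

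The other 4 members did not stand above IgG. CCL2 had 9.77 and 8.92 TPM with H2O2, against 9.76 and 11.8 TPM with IgG, and its log2 difference was -0.18 (SE 0.10, limma adjusted p 0.405). CCL5, CXCL5 and CXCL16 overlapped between the groups, with log2 differences of -0.09, -0.05 and 0.00 (limma adjusted p 0.826, 0.882 and 1). The median log2 difference of the 9 members in MDA-MB-231 was 0.17, against 0.03 for all tested genes.

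**Figure D2:**
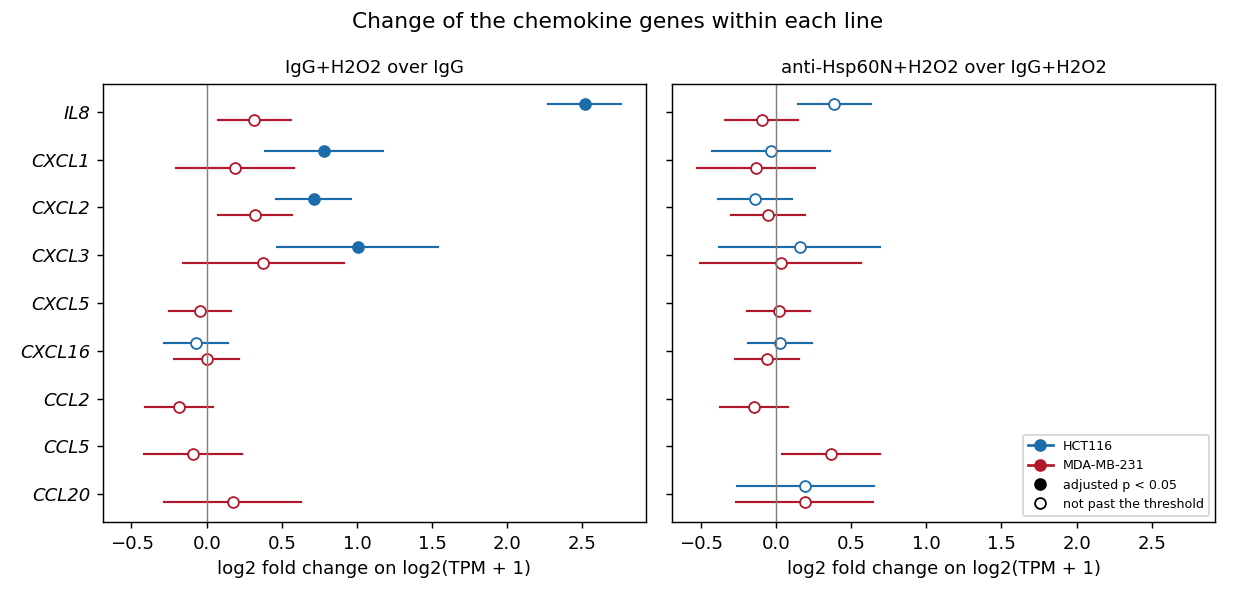
Points give the log2 fold change of each member on log2(TPM + 1) with its 95% interval, for IgG with H2O2 over IgG (left) and anti-Hsp60N with H2O2 over IgG with H2O2 (right), HCT116 in blue and MDA-MB-231 in red, filled where the limma adjusted p is under 0.05. Members at or near 0 in an HCT116 group have no HCT116 point, and among those drawn the filled points are IL8 (2.52), CXCL1 (0.78), CXCL2 (0.71) and CXCL3 (1.005) in HCT116 at left.

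The difference between the lines in the response to H2O2 was itself tested, as the log2 change in HCT116 minus that in MDA-MB-231. IL8 was called, with a more positive change in HCT116 and a difference of 2.199 (SE 0.16, limma adjusted p 1.19e-05, 95% interval 1.86 to 2.54). It was the 1 member called of 9, where 17.4% of all tested genes were called, 7.65% in that direction. CXCL1, CXCL2, CXCL3 and CCL20 had differences of 0.59, 0.39, 0.63 and 0.65 with limma adjusted p of 0.133, 0.116, 0.233 and 0.155, so a different response of these genes in the lines was not shown. With a pseudocount of 0.1 in place of 1, CXCL2 (limma adjusted p 0.0332) and CCL20 (0.00942) were called as well. The remaining 4 members had differences between -0.07 and 0.18. CCL2 and CXCL5 were listed at 0 in HCT116, and CCL5 was at 0 and 0.10 TPM in both HCT116 groups. For these genes the difference is the MDA-MB-231 change with its sign turned and does not measure a response in HCT116. On the linear scale the order of the lines was the other way for IL8: the mean was 6.97 TPM higher with H2O2 in HCT116 and 60.3 TPM higher in MDA-MB-231, a difference for which no test was run. For CXCL1 the corresponding increments were 1.22 TPM in HCT116, against 50.1 TPM in MDA-MB-231. The ratio of IL8 to CXCL1 was 2.72 and 6.14 with H2O2, against 1.15 and 0.5 with IgG in HCT116, and 0.746 and 0.743 with H2O2, against 0.674 and 0.687 with IgG in MDA-MB-231.

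**Figure D3:**
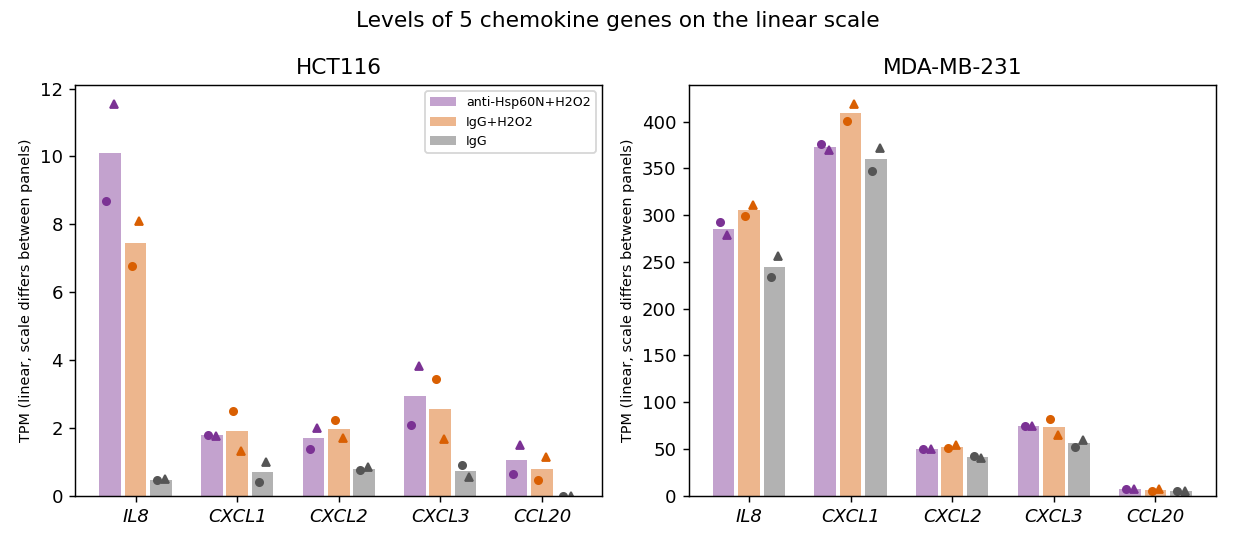
Bars give the mean TPM of IL8, CXCL1, CXCL2, CXCL3 and CCL20 on a linear axis that starts at 0, HCT116 left and MDA-MB-231 right with different scales, and points give the 2 libraries of each group. With IgG and H2O2, IL8 reaches a mean of 7.44 TPM in HCT116, against 305 TPM in MDA-MB-231.

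The antibody comparison asks how expression under H2O2 differs when anti-Hsp60N takes the place of IgG, and its IgG with H2O2 libraries are those of the H2O2 comparison. In HCT116 0 of the 9 members were called by limma and 1, IL8, had an unadjusted p under 0.05. Of all tested genes 0.0215% were called and 5.16% had an unadjusted p under 0.05. IL8 had 8.69 and 11.5 TPM with anti-Hsp60N and H2O2, against 6.78 and 8.10 TPM with IgG and H2O2. Both antibody libraries stood above both IgG libraries, as in 21.9% of all tested genes, with a log2 difference of 0.39 (SE 0.11, limma adjusted p 0.92, 95% interval 0.15 to 0.63 before adjustment). CXCL1 had 1.78 and 1.77 TPM with anti-Hsp60N, against 2.49 and 1.32 TPM with IgG (log2 difference -0.04), and its libraries overlapped. So did those of CXCL2 (1.39 and 2 TPM with anti-Hsp60N, against 2.22 and 1.70 TPM with IgG), CXCL3 (2.07 and 3.81 TPM against 3.44 and 1.67 TPM) and CCL20 (0.64 and 1.49 TPM against 0.45 and 1.15 TPM). CXCL16 had 50.9 and 52.5 TPM with anti-Hsp60N, against 49.1 and 52.3 TPM with IgG, all in the presence of H2O2. CCL2 and CXCL5 were listed at 0 in every HCT116 library. CCL5 was listed at 0 in both antibody libraries and at 0 and 0.10 TPM with IgG and H2O2. A fall of these genes could therefore not be seen.

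In MDA-MB-231, likewise under H2O2, 0 of 9 members were called by limma and 1, CCL5, had an unadjusted p under 0.05. Of all tested genes 0.0143% were called and 13.1% had an unadjusted p under 0.05, so 1 of 9 is near the background. CCL5 had 1.13 and 1.59 TPM with anti-Hsp60N, against 0.59 and 1.09 TPM with IgG, a log2 difference of 0.37 (SE 0.15, limma adjusted p 0.331). IL8 had 292 and 279 TPM with anti-Hsp60N, against 299 and 311 TPM with IgG (log2 difference -0.09, limma adjusted p 0.75, 95% interval -0.34 to 0.15). CXCL1 had 376 and 370 TPM with anti-Hsp60N, against 401 and 418 TPM with IgG (log2 difference -0.13, limma adjusted p 0.787). For IL8, CXCL1, CXCL2 and CCL2 the antibody libraries stood below the IgG libraries, for CCL5 and CCL20 above, and for the other 3 they overlapped. Among all tested genes 31.3% stood below and 16.8% above without overlap. CCL20 had 6.87 and 6.86 TPM with anti-Hsp60N, against 5.20 and 6.65 TPM with IgG, and CCL2 had 8.71 and 7.99 TPM with anti-Hsp60N, against 9.77 and 8.92 TPM with IgG. Tested as a difference between the lines, the antibody change was called in 0 of 9 members by limma, with 1, IL8, at an unadjusted p under 0.05 (difference 0.48, adjusted p 0.351). Of all tested genes 0.0287% were called and 12.5% had an unadjusted p under 0.05, so this count too is near the background. For CCL2 and CXCL5, listed at 0 in HCT116, this difference between the lines is the MDA-MB-231 change with its sign turned.

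Anti-Hsp60N with H2O2 was also set against IgG alone, a comparison that shares its IgG libraries with the H2O2 comparison above. In HCT116, 5 of 9 members were higher, none lower, where 16.8% of all tested genes were called higher and 34.3% in all. IL8 rose by 2.91 (SE 0.11, limma adjusted p 4.05e-08) and its mean TPM was 21.5 times that of IgG. CXCL1 rose by 0.74, CXCL2 by 0.57 and CXCL3 by 1.16 (limma adjusted p 0.00875, 0.0031 and 0.00435), and CCL20, listed at 0 with IgG, was called at 0.00384 by limma. Without HCT116 IgG replicate 1 the adjusted p of CXCL1 was 0.0655, and in a fit of HCT116 alone that of CXCL1, CXCL2, CXCL3 and CCL20 was 0.112, 0.0539, 0.0764 and 0.0652. In MDA-MB-231, 0 of 9 members were called by limma and 2 had an unadjusted p under 0.05, where 3.4% of all tested genes were called and 19.1% had an unadjusted p under 0.05. These 2 were CCL2, with 8.71 and 7.99 TPM against 9.76 and 11.8 TPM with IgG (log2 difference -0.33, limma adjusted p 0.114), and CXCL2, with 50.4 and 50.1 TPM against 42.8 and 40.4 TPM with IgG (log2 difference 0.27, limma adjusted p 0.227). The SE of CCL2 rests in part on HCT116 libraries, all listed at 0, which lower it.

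The 5 ELR+ members lie in a cluster of 9 protein-coding chemokine genes on chromosome 4, which runs in the RefSeq order CXCL8, CXCL6, PF4V1, CXCL1, PF4, PPBP, CXCL5, CXCL3 and CXCL2. CXCL6 and PF4V1 were listed at 0 in all 12 libraries, PPBP, a platelet chemokine, reached at most 0.08 TPM, and PF4, platelet factor 4, averaged 0.725 to 1.16 TPM in MDA-MB-231 and was listed at 0 in HCT116. These cluster neighbours were picked out after their values were seen. Of 32 other chemokine genes, 14 were listed at 0 everywhere and 6 passed the filter on low values. CCL26, a ligand of CCR3, averaged 0.955, 1.49 and 0.930 TPM in HCT116 with anti-Hsp60N and H2O2, IgG and H2O2, and IgG, and 16.0, 11.6 and 14.8 TPM in MDA-MB-231. In HCT116 CCL26 was called higher with H2O2 (log2 0.37, limma adjusted p 0.0427), a call that ended without any 1 of the 4 libraries compared (adjusted p 0.062 to 0.185) or without either antibody library of either line (0.052 to 0.0544). CCL24, another ligand of CCR3, averaged 0.975 TPM with anti-Hsp60N and H2O2 in HCT116. There it was listed at 0 both with IgG and with IgG and H2O2. It was called with anti-Hsp60N and H2O2 over IgG (limma adjusted p 0.0328). That call ended without IgG replicate 1, IgG replicate 2 or antibody replicate 1. In the antibody comparison CCL24 was not called in HCT116 (limma adjusted p 0.92). In MDA-MB-231 0 of the 6 were called by limma under H2O2, 0 with anti-Hsp60N and H2O2 over IgG and 0 in the antibody comparison, with 2, 1 and 4 at an unadjusted p under 0.05, where the shares of all tested genes at that p were 16.7%, 19.1% and 13.1%.

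Receptors of the ELR+ ligands, CCL2, CCL20 and CXCL16 were below 1 TPM in every library of both lines. No library had more than 0.77 TPM of CXCR1, 0.71 of CXCR2, 0.09 of CCR2, 0.30 of CCR6 or 0.55 of CXCR6. Of 22 receptor genes, 2 passed the filter, CXCR4 and CXCR7, which bind CXCL12. CXCR4 averaged 1.99, 1.70 and 1.03 TPM in HCT116 with anti-Hsp60N and H2O2, IgG and H2O2, and IgG, and 26.8, 26.1 and 31.7 TPM in MDA-MB-231. With H2O2 it was called higher over IgG in HCT116 (log2 0.41, limma adjusted p 0.0309), but leaving out any 1 of these 4 libraries ended the call (adjusted p 0.054 to 0.151). With anti-Hsp60N and H2O2 over IgG its limma adjusted p was 0.00803, and 0.0525 without IgG replicate 2 or 0.0658 without antibody replicate 1.

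Genes that regulate these chemokines were read from lists of NF-kappaB subunits and inhibitors, AP-1 and stress factors, inducing cytokines, mRNA decay factors and CXCL16 sheddases. In HCT116 under H2O2, 9 of 15 NF-kappaB genes rose and none fell, where 15.4% of all tested genes rose and 17.5% fell. The 9 include inhibitors, such as NFKBIA (log2 0.41, limma adjusted p 0.000366), as well as subunits, and the count does not measure NF-kappaB activity. The median log2 change of the 15 was 0.24. RELB, a subunit of the non-canonical pathway, averaged 26.7 ± 1.59 TPM with H2O2, against 9.13 ± 0.530 TPM with IgG (log2 1.45, limma adjusted p 8.24e-07). NFKB2, its partner, averaged 117 ± 1.63 TPM with H2O2, against 64.0 ± 2.49 TPM with IgG (log2 0.86, limma adjusted p 4.22e-06), and TNIP1, which restrains NF-kappaB through A20, averaged 58.8 ± 1.74 TPM, against 37.8 ± 0.127 TPM (log2 0.63, limma adjusted p 2.4e-06). In MDA-MB-231, 0 of the 15 were called by limma, 5 had an unadjusted p under 0.05, and the median was 0.10, where 2.66% of all tested genes were called and 16.7% had an unadjusted p under 0.05. The difference between the lines in the H2O2 change was past the threshold of limma in 7 of the 15, all more positive in HCT116, as in 7.65% of all tested genes.

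Of 13 AP-1 and stress factors, 9 rose with H2O2 in HCT116 and none fell, against 15.4% and 17.5% of all tested genes, with a median log2 change of 0.57. In MDA-MB-231 1 of the 13 rose, where 2.66% of all tested genes were called, and the median was 0.05. DDIT3, the stress factor CHOP, averaged 184 ± 1.90 TPM with H2O2, against 27.8 ± 2.61 TPM with IgG in HCT116 (log2 2.68, limma adjusted p 2.19e-08). ATF3, a stress-induced repressor and activator, averaged 45.8 ± 1.80 TPM, against 9.41 ± 0.679 TPM (log2 2.17, limma adjusted p 1.55e-07). ATF4, the factor of the integrated stress response, averaged 952 ± 38.2 TPM with H2O2, against 483 ± 37.4 TPM with IgG in HCT116, and 393 ± 4.10 TPM, against 305 ± 1.38 TPM, in MDA-MB-231. It was called in both lines (log2 0.98 and 0.36, limma adjusted p 5.5e-07 and 0.00497), though in MDA-MB-231 not without IgG with H2O2 replicate 1 (0.0601). The difference between the lines was past the threshold in 7 of the 13, all more positive in HCT116, against the same 7.65% of all tested genes.

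**Figure D4:**
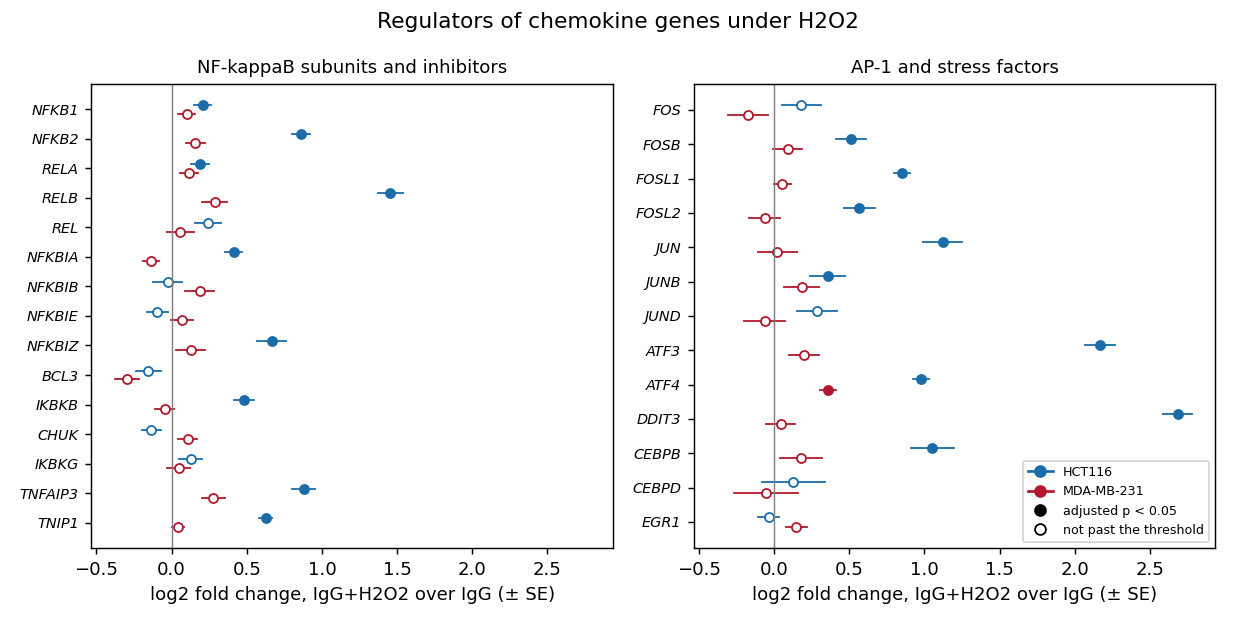
Points give the log2 fold change of IgG with H2O2 over IgG with its SE for 15 NF-kappaB genes (left) and 13 AP-1 and stress factors (right), HCT116 in blue and MDA-MB-231 in red, filled where the limma adjusted p is under 0.05. In HCT116 9 points are filled in each panel, led by RELB at 1.45 and DDIT3 at 2.68, and in MDA-MB-231 ATF4 at 0.36 is the 1 filled point.

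Of 10 cytokine and receptor genes tested, 1 rose and 1 fell with H2O2 in MDA-MB-231, where 2.66% of all tested genes were called. IL6 averaged 195 ± 10.5 TPM with H2O2, against 129 ± 2.39 TPM with IgG in MDA-MB-231 and rose there (log2 0.59, limma adjusted p 0.00174). With a pseudocount of 0.1 the call ended (limma adjusted p 0.39), while the log2 was again 0.59 and the SE was 0.31, against 0.07. In HCT116, which shares the estimate of the spread, no group averaged more than 0.05 TPM of IL6. CSF2 averaged 0.620 TPM with H2O2, against 0.0900 TPM with IgG in HCT116, and 347 TPM with H2O2, against 243 TPM with IgG in MDA-MB-231. It was not called with H2O2 in HCT116 (limma adjusted p 0.0843) or in MDA-MB-231 (0.255). LTB was lower with H2O2 in MDA-MB-231, 4.57 ± 0.912 TPM against 7.54 ± 1.35 TPM (log2 -0.62, limma adjusted p 0.0337), but not without IgG replicate 1 (0.191) or IgG with H2O2 replicate 2 (0.261). In HCT116 2 of the 10 rose, near the 15.4% of all tested genes, LIF (81.9 ± 1.12 TPM with H2O2, against 50.1 ± 5.20 TPM with IgG, limma adjusted p 3.68e-05) and TNFRSF1A, the TNF receptor (101 ± 4.42 TPM, against 79.6 ± 1.13 TPM, limma adjusted p 0.00386). Of 7 mRNA decay and stability factors, 3 rose and 3 fell with H2O2 in HCT116, where 15.4% of all tested genes rose and 17.5% fell. ZFP36, which promotes decay of AU-rich mRNAs, averaged 83.7 ± 0.841 TPM, against 47.5 ± 3.39 TPM (log2 0.81, limma adjusted p 0.000524), ZFP36L1 changed by 0.73 (0.000181), and ELAVL1, the stabilising factor HuR, fell to 51.5 ± 1.30 TPM, against 65.6 ± 2.52 TPM with IgG (log2 -0.34, 0.000696). In MDA-MB-231 0 of the 7 were called by limma and 0 had an unadjusted p under 0.05. ADAM17 rose with H2O2 in HCT116, to 45.4 ± 2.62 TPM against 26.8 ± 0.403 TPM with IgG (log2 0.74, limma adjusted p 2.74e-05), whereas ADAM10 was not called (log2 -0.13, adjusted p 0.199) and their substrate CXCL16 had the values given above.

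With anti-Hsp60N and H2O2 over IgG, 10 of 15 NF-kappaB genes and 9 of 13 AP-1 and stress factors were called higher by limma in HCT116, where 16.8% of all tested genes were. RELB averaged 24.6 TPM, DDIT3 175 TPM and ATF3 52.4 TPM with anti-Hsp60N and H2O2. LIF, TNFRSF1A, ZFP36, ZFP36L1 and ADAM17 were also higher (limma adjusted p 4.13e-05, 0.0059, 0.000788, 6.51e-05 and 1.58e-05) and ELAVL1 lower (0.00136), TNFRSF1A not without antibody replicate 2 (0.058). Of cytokine genes in HCT116, CSF2 was called as well, at 0.760 ± 0.297 TPM against 0.0900 ± 0.127 TPM with IgG (limma adjusted p 0.028), but not without IgG replicate 1 (0.136), IgG replicate 2 (0.0513) or antibody replicate 2 (0.182). In MDA-MB-231, 2 of 15 NF-kappaB genes were called, where 3.4% of all tested genes were, RELB (33.9 ± 1.05 TPM against 24.4 ± 0.240 TPM, limma adjusted p 0.0147) and NFKB2 (92.4 ± 5.90 TPM against 75.4 ± 1.58 TPM, 0.0292). IL6 and ATF4 were called (limma adjusted p 0.00115 and 0.000702, for IL6 0.324 with a pseudocount of 0.1), as were IL1B (79.3 ± 1.63 TPM against 61.7 ± 0.361 TPM, 0.0247) and JUNB (48.6 ± 7.72 TPM against 33.4 ± 2.83 TPM, 0.0375). With that pseudocount the log2 of IL6 was 0.625, against 0.621, and its SE 0.31, against 0.07. Leaving out IgG replicate 1, IgG replicate 2 or antibody replicate 2 each ended the calls of RELB (0.0706 to 0.119), NFKB2 (0.115 to 0.211), JUNB (0.106 to 0.247) and IL1B (0.0791 to 0.128) in MDA-MB-231, and for IL1B leaving out antibody replicate 1 did so too (0.112). In the antibody comparison itself, 0 genes of the NF-kappaB and of the AP-1 lists were called by limma in either line, while 1 and 2 had an unadjusted p under 0.05 in HCT116 and 4 and 5 in MDA-MB-231. The shares of all tested genes at that p were 5.16% in HCT116 and 13.1% in MDA-MB-231.

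The genes most like each member were sought among 11495 genes, by Pearson r over the 12 libraries of log2(TPM + 1) centred on the mean of the library's line. These r are descriptions over libraries that share 2 lines and 3 treatments. For IL8 the closest were AGPAT9, which makes lipid precursors (r = 0.996), MDM2, the p53 ubiquitin ligase (0.995), and CD55, the complement decay-accelerating factor (0.992). MDM2 averaged 125, 115 and 54.7 TPM in HCT116 with anti-Hsp60N and H2O2, IgG and H2O2, and IgG, and 18.2, 17.8 and 16.5 TPM in MDA-MB-231. CD55 averaged 83.3, 75.8 and 24.5 TPM in HCT116, against 137, 130 and 125 TPM in MDA-MB-231 in the same groups. Like IL8, both were higher in the H2O2 groups of HCT116, but unlike IL8 MDM2 stood higher in HCT116 than in MDA-MB-231 under IgG. For CXCL1 the closest were PABPC1L (0.953), TRAF4 and UPK3BL (0.951 each). For CXCL2 they were PTK6 (0.958), LONRF1 (0.953) and MED10 (0.949), and for CXCL3 TPM3P9 (0.938), KLHL29 (0.935) and C1orf27 (0.929). For CCL20 they were EFEMP2 (0.956), NOP14-AS1 (0.934) and SPRED2 (0.930), and for CCL2 SDC2, a heparan sulfate proteoglycan (0.985), GJA1, the gap junction protein connexin 43 (0.977), and KLHL4 (0.976). The lowest r were those of CXCL16, with CSTF2T (0.873), DMKN (0.854) and CHEK2 (0.841), beside CXCL5 with LINC00472 (0.938) and HR (0.898) and CCL5 with CIRBP-AS1 (0.918), ANKRD9 (0.883) and NNMT (0.876). CCL2 and CXCL5 were listed at 0 in every HCT116 library, so their r reflect variation in MDA-MB-231 alone. SDC2, KLHL4 and LINC00472 were listed at 0 in HCT116 too, and the r of the members are not on an equal footing. Among the members themselves, IL8 had r of 0.812 with CXCL1, 0.854 with CXCL2, 0.843 with CXCL3 and 0.883 with CCL20 on the same basis, and -0.05 with CCL2. CCL2 was listed at 0 throughout HCT116, where IL8 varied most. That last r therefore cannot show whether the genes vary together.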

How the data were processed

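Per the submitters' processing notes, the tools were bcl2fastq 2.20, STAR and RSEM and the build was hg19. Roles and order of these tools, versions of STAR and RSEM, annotation and strand setting were not given in the sources used here. What the authors deposited is TPM per gene symbol, to 2 decimals, in 1 table of 12 libraries. Each column was matched to its library by the description in the labels.

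From these, log2(TPM + 1) was computed, and genes that reached 1 TPM in 2 or more of 12 libraries were tested, which left 13956 of 23686 genes and all 9 members. Group means of the 6 groups were compared in R 4.3.3 by limma 3.58.1, two-sided and with a variance trend. Each gene had 1 spread shared by both lines, so HCT116 groups listed at 0, as for CCL2 and CXCL5, lowered the SE of those genes in MDA-MB-231. In HCT116 the SE of CXCL1, CXCL2, CXCL3 and CCL20 was smaller in this joint fit than with HCT116 fitted alone. There were 6 residual and 4.63 prior degrees of freedom, and p-values were adjusted by Benjamini-Hochberg over the 13956 genes, with a threshold of 0.05. The procedure was checked on simulated data in which a gene had the same spread in both lines. That check does not cover genes whose spread differs between the lines. A value of 0 can be a failed estimate, so a gene at 0 is given as listed at 0, with no fold.

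The genes named are the 9 members, up to 3 called genes of smallest p per regulator list and within-line comparison, and the 3 genes of highest r per member among genes averaging 5 TPM or more in 1 group. CSF2 levels in H2O2 groups, receptors of the members and the cluster neighbours were named after their values were seen. Some genes that meet these rules are not reported here. The members and lists were chosen with earlier results of these data known. The receptor symbols ACKR1 to ACKR4 were matched to the older DARC, CCBP2, CXCR7 and CCRL1. Promoters came from RefSeq (GRCh38.p14) and transcripts from GENCODE. Alternatives were pseudocounts of 0.1 and 0.5, other filters and scalings, each line alone, replicate blocks, no variance trend and each library left out. Figures used matplotlib 3.10.9 in Python 3.11.15.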

Additional observations from a re-analysis of the deposited data

Results flagged for a closer look

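The H2O2 change of IL8 differed between the lines by a test of the difference itself. The log2 change in HCT116 minus that in MDA-MB-231 was 2.199 (SE 0.16, limma adjusted p 1.19e-05 over 13956 genes). IL8 was higher with H2O2 in 2 of 2 libraries of each line, at 6.78 and 8.10 TPM, against 0.45 and 0.49 TPM with IgG in HCT116, and at 299 and 311 TPM, against 234 and 256 TPM with IgG in MDA-MB-231. Over 21 alternatives the difference ranged between 2.08 and 3.40, and its adjusted p reached at most 0.00031. The levels with IgG also differed between the lines, by -7.38 on the log2 scale, and their part in the difference was not tested.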

How the results depend on the processing

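The number of chemokine genes called moved by over 1.5 times in a few settings. With a pseudocount of 0.1, 3 in place of 1 were called in the H2O2 change of HCT116 minus that of MDA-MB-231. With a filter of a mean TPM of at least 5, 5 in place of 9 were called between the lines under IgG, because 5 members passed that filter. With the line fitted alone, 2 in place of 5 were called for H2O2 in HCT116 and 1 in place of 5 for anti-Hsp60N with H2O2 over IgG in HCT116. Leaving out 1 library at a time gave 3 to 5 for H2O2 in HCT116 (3 without HCT116 IgG replicate 2 or IgG with H2O2 replicate 1), 4 to 5 for anti-Hsp60N with H2O2 over IgG in HCT116, 1 to 2 for the difference in the H2O2 change (CXCL1 was added without HCT116 IgG replicate 2 or IgG with H2O2 replicate 2), and the same count in the other 6 comparisons (0 in 5 and 9 between the lines). A pairing of libraries by replicate number was not evident: the correlations of same-numbered deviations were 0.012 to 0.164 in MDA-MB-231 and -0.127 to 0.0552 in HCT116. Weak correlations cannot show that the libraries were unpaired. A replicate block within each line gave 5 for H2O2 in HCT116 and moved no other of these counts, and a block with crossed IgG numbers in HCT116, chosen after seeing the data, gave 2 in the difference of the H2O2 change. Over all genes, H2O2 in MDA-MB-231 gave 371 calls, 86 with the line alone and 116 to 434 without 1 library. Anti-Hsp60N with H2O2 over IgG in MDA-MB-231 gave 475, 101 and 145 to 551 in the same settings. H2O2 in HCT116 gave 4592 and 3000 to 4650 without 1 library, anti-Hsp60N with H2O2 over IgG in HCT116 4792 and 2953 to 4817, and the difference of the H2O2 change 2423 and 1251 to 2335. The antibody comparison gave 2 calls in MDA-MB-231 (0 to 3 over all settings) and 3 in HCT116 (1 to 7), and its difference between lines 4 (0 to 6). Median-of-ratios scaling turned the split of higher and lower calls in MDA-MB-231 under H2O2, 181 and 190, into 154 and 279, and that between the lines, 6348 and 5209, into 5701 and 5901. For the difference of the H2O2 change it turned 1067 and 1356 into 1249 and 1178. Of the single genes named, 86 of 2553 values under an alternative lost a call and none that was called changed sign. The cause of these moves was not tested. Values of a few TPM in HCT116 have an unknown counting error.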
